A study of Rattus norvegicus with 18 samples.

Results

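The NRF2 antioxidant genes described here are 10 genes of the oxidative stress response: Slc7a11, Me1, Nqo1, Hmox1, Gclc, Gclm, Txnrd1, Srxn1, Gsr and Sod2. They were chosen by name, with no threshold on measured values, though earlier results of these data were known when the list was made. Each was read by 1 array feature that carries its symbol alone, so all 10 were measured, out of 14499 genes with such a feature. The study used Affymetrix whole-transcript arrays on cells cultured directly from the collecting ducts of the rat renal inner medulla, the last stretch of the kidney tubule. Its groups bear on how raised tonicity changes gene expression and what cyclosporin A, which blocks the phosphatase calcineurin, does to that response. There were 6 groups of 3 arrays. The 300 culture and the 600 culture were grown at 300 and 600 mosmol/kg. In the 600 challenge, cells of the 300 culture spent 24 h at 600 mosmol/kg, and in the 900 challenge, cells of the 600 culture spent 24 h at 900 mosmol/kg. The other two groups were the same challenges with 5 µM cyclosporin A. All groups were cultured primary cells. The labels name neither strain nor sex, and they give no mock step at constant osmolality, no vehicle and no culture that received the drug without a challenge. They also leave unsaid whether replicate arrays stand for separate animals or cultures. The spread behind each p-value is therefore that between arrays and may be technical.

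NRF2, encoded by Nfe2l2, is a transcription factor that the adaptor KEAP1 holds at a low level by feeding it to a CUL3 ubiquitin ligase. Oxidants and electrophiles modify KEAP1, NRF2 then builds up, pairs with a small MAF protein and binds the antioxidant response element in front of genes for glutathione synthesis, NADPH supply, the thioredoxin system and haem breakdown. In the inner medulla, where salt and urea are concentrated and oxygen is scarce, hypertonicity is known to raise reactive oxygen species. Several members answer to other factors as well: Slc7a11 is also a target of ATF4, Hmox1 is also held down by BACH1, and Sod2 is a well known target of NF-kB.

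Promoter sequence was available for 8 of the 10 genes in RefSeq (rat build GRCr8), in 9 windows that run from 250 bases before to 50 bases after an annotated start, with 2 windows for Txnrd1. Windows for Hmox1 and Gsr were not used here. The core of the antioxidant response element, TGACNNNGC, read on both strands, was found in 4 of these 9 windows (Me1, Gclm, 1 of the 2 Txnrd1 starts, and Sod2) and in 12.1% of all 33469 windows of that length. The 4 stretches shown are those around these cores. Their genes behaved differently in these cultures: Me1 and Gclm rose in both osmotic steps, Txnrd1 in neither, and Sod2 fell in the first and rose in the second. Each stretch is 90 bases on the gene's own strand, 5′ to 3′, with the core in capitals. The core lies at bases -167 to -159 from the start in Me1, -172 to -164 in Gclm, -78 to -70 in Txnrd1 and -35 to -27 in Sod2, and it reads on the opposite strand in Gclm, Txnrd1 and Sod2.
Me1 (chr8:96540363-96540452, minus strand): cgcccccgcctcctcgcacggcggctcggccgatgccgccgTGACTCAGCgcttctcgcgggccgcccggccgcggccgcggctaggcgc
Gclm (chr2:213031922-213032011, plus strand): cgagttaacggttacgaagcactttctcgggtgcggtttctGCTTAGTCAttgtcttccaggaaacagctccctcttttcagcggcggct
Txnrd1 (chr7:22755934-22756023, minus strand): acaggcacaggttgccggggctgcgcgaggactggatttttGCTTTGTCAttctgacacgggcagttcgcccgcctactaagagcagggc
Sod2 (chr1:50050155-50050244, minus strand): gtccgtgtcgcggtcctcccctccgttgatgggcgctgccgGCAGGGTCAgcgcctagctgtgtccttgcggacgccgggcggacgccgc

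The Me1 core holds the AP-1 site TGACTCA, with which it overlaps. AP-1 sites also occur at 2 places in the Srxn1 window, and 4.63% of all windows hold one. The ATF4 element TGATGNAAN and the tonicity element, to which NFAT5 binds, were found in 0 of the 9 windows, against 3.97% and 5.98% of all windows. These matches describe letters in short windows only.

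Values were deposited on a log scale of unknown base, and 1 log unit is a fold of 2 if the base is 2 and of 2.72 if the logarithm is natural. Array medians lay between 3.56 and 3.65, and the lower quartile of all values was 2.60. Of the members, only Srxn1 had arrays under that quartile. Against the label of collecting duct cells, epithelial markers were present in every group (mean of 8 markers 7.07 to 7.35 per array). The principal cell list was higher in cells grown at 600 mosmol/kg: the mean of its 12 markers was 4.79 to 5.29 per array in the 600 culture and both 900 challenges, and 2.83 to 3.11 in the 300 culture and both 600 challenges. In that second set the water channel gene Aqp2 averaged 1.61 to 2.28, under the lower quartile. Other cells were also read. The mean of 13 leukocyte markers was 5.77 to 5.85 in the 300 culture, 4.28 to 4.64 in the 600 culture and both 600 challenges and 3.41 to 3.46 in both 900 challenges. Fibroblast markers (12) went from 6.24 to 6.30 in the 300 culture to 5.20 to 5.35 in the 900 challenges, and endothelial markers (7) lay between 4.40 and 5.40. Of 5 intercalated cell and 6 proximal tubule markers, 4 and 5 averaged under the lower quartile. The remaining intercalated cell marker, Slc26a4, averaged 5.95 to 6.15 in the 300 culture and both 600 challenges. It averaged 3.34 to 3.61 in the 600 culture and both 900 challenges. The remaining proximal tubule marker, Aqp1, averaged 4.90 in the 300 culture, 7.36 in the 600 culture and 8.15 in the 900 challenge. No marker of any list had a value of 0. Bulk arrays cannot tell fewer cells of a type from less RNA per cell.

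**Figure D1:**
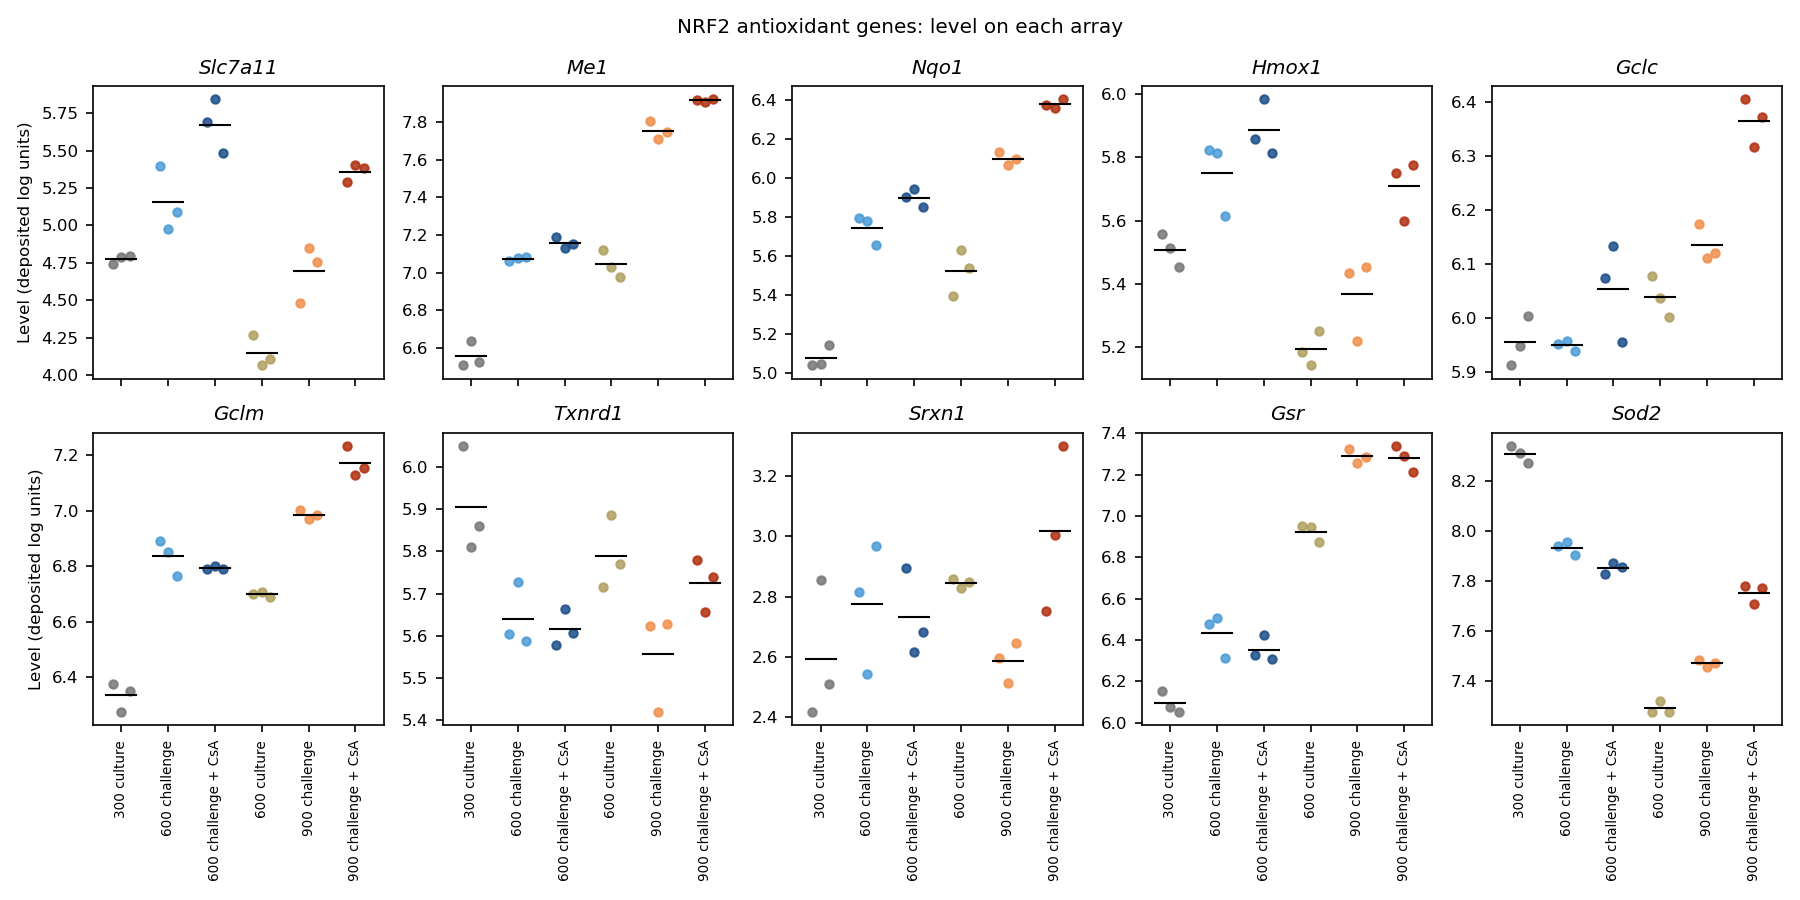
Level of each NRF2 antioxidant gene (deposited log units, vertical axis, scaled to each gene) on each of the 18 arrays, by group; points are arrays and bars are group means of 3 arrays. Me1, Nqo1 and Gclm are lowest in the 300 culture and highest in the 900 challenge with cyclosporin A (CsA), whereas Sod2 is highest in the 300 culture.

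Across the 6 groups the members followed different courses. Me1, Nqo1, Gclm and Gsr were lowest in the 300 culture and highest after a 900 challenge. Slc7a11 and Hmox1 were lowest in the 600 culture and highest in the 600 challenge with the drug. Sod2 ran from the 300 culture at the top to the 600 culture at the bottom. Gclc, Txnrd1 and Srxn1 varied least, by 0.41, 0.35 and 0.43 log units between their lowest and highest group means.

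Slc7a11 encodes the xCT chain of the transporter that brings cystine into the cell for glutathione synthesis. Its values were 4.74, 4.79 and 4.80 in the 300 culture. The 600 challenge gave 5.39, 4.98 and 5.09, and 5.69, 5.84 and 5.49 with cyclosporin A. The 600 culture gave 4.27, 4.07 and 4.11, the 900 challenge 4.48, 4.85 and 4.75, and that challenge with the drug 5.29, 5.40 and 5.38. All 3 drug-treated values lay above all 3 untreated ones at both challenges. Between the lowest and the highest group mean lay 1.53 log units, the widest range of the 10 genes, and in the order of the groups only the lowest step (600 culture to 900 challenge) and the step from the 300 culture to the 600 challenge passed the test between neighbours.

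Gclc and Gclm encode the catalytic and the modifier subunit of glutamate-cysteine ligase, the rate-limiting enzyme of glutathione synthesis. Gclm read 6.38, 6.27 and 6.35 in the 300 culture, 6.70, 6.71 and 6.69 in the 600 culture. The 600 challenge gave 6.89, 6.85 and 6.76. In the 900 challenge it read 7.002, 6.971 and 6.983 without and 7.23, 7.13 and 7.15 with cyclosporin A, which is above every other group. Gclc spanned 5.91 to 6.17 over the 15 arrays of the first 5 groups and stood at 6.41, 6.32 and 6.37 in the 900 challenge with the drug. For Gclc no neighbours in the order of group means passed the test.

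Gsr encodes glutathione reductase, which restores glutathione with NADPH, and Me1 encodes the cytosolic malic enzyme, a source of NADPH. Gsr read 6.15, 6.08 and 6.05 in the 300 culture. The 600 challenge gave 6.48, 6.51 and 6.31 and the 600 culture 6.95, 6.95 and 6.87. It reached 7.33, 7.26 and 7.28 in the 900 challenge and 7.34, 7.29 and 7.21 with the drug, so the 600 culture stood between the 600 and 900 challenges. Me1 read 6.51, 6.64 and 6.53 in the 300 culture, and its 9 values in the 600 culture and both 600 challenges lay between 6.98 and 7.19. The 900 challenge gave 7.81, 7.71 and 7.75 for Me1, and 7.92, 7.91 and 7.92 with the drug.

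Nqo1 encodes the quinone reductase that serves as the standard readout of NRF2 activity. It averaged 5.08 ± 0.06 (SD, n = 3) in the 300 culture, 5.52 ± 0.12 in the 600 culture, 5.74 ± 0.08 in the 600 challenge and 6.10 ± 0.03 in the 900 challenge. With cyclosporin A the means were 5.90 ± 0.05 at the 600 and 6.38 ± 0.02 at the 900 challenge. This is the same order as that of Me1, and 13 of the 15 pairs of groups differed in limma's test for Nqo1, as against 1 of 15 for Srxn1.

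Hmox1 encodes haem oxygenase 1, which degrades haem. It averaged 5.51 ± 0.05 in the 300 culture, 5.75 ± 0.12 in the 600 challenge and 5.89 ± 0.09 with the drug. The means were 5.19 ± 0.05 in the 600 culture, 5.37 ± 0.13 in the 900 challenge and 5.71 ± 0.10 with the drug, and no neighbours in the order of these levels passed the test. Macrophages are known for high Hmox1, and the leukocyte list was highest in the 300 culture, where Hmox1 was not: its part in these levels was not tested.

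Txnrd1 encodes cytosolic thioredoxin reductase and Srxn1 encodes sulfiredoxin, which repairs overoxidised peroxiredoxins. Txnrd1 values ran from 5.42 to 6.05 and were on average highest in the 300 culture (5.91 ± 0.13) and lowest in the 900 challenge (5.56 ± 0.12). Srxn1 ran from 2.42 to 3.30, near the lower quartile, where a level is not shown to stand above background. Its 3 arrays in the 900 challenge with the drug (2.75, 3.00 and 3.30) were above those without it (2.60, 2.51 and 2.65).

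Sod2 encodes the manganese superoxide dismutase of mitochondria. It read 8.34, 8.31 and 8.27 in the 300 culture. The 600 challenge gave 7.94, 7.96 and 7.90, and 7.83, 7.87 and 7.86 with the drug. The 600 culture had the lowest values, 7.28, 7.32 and 7.28. In the 900 challenge Sod2 read 7.48, 7.46 and 7.47, and with the drug 7.78, 7.71 and 7.77. No 2 groups overlapped, and the neighbours that did not pass the test in this order were both 600 challenges and the 900 against the 600 challenge with the drug.

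**Figure D2:**
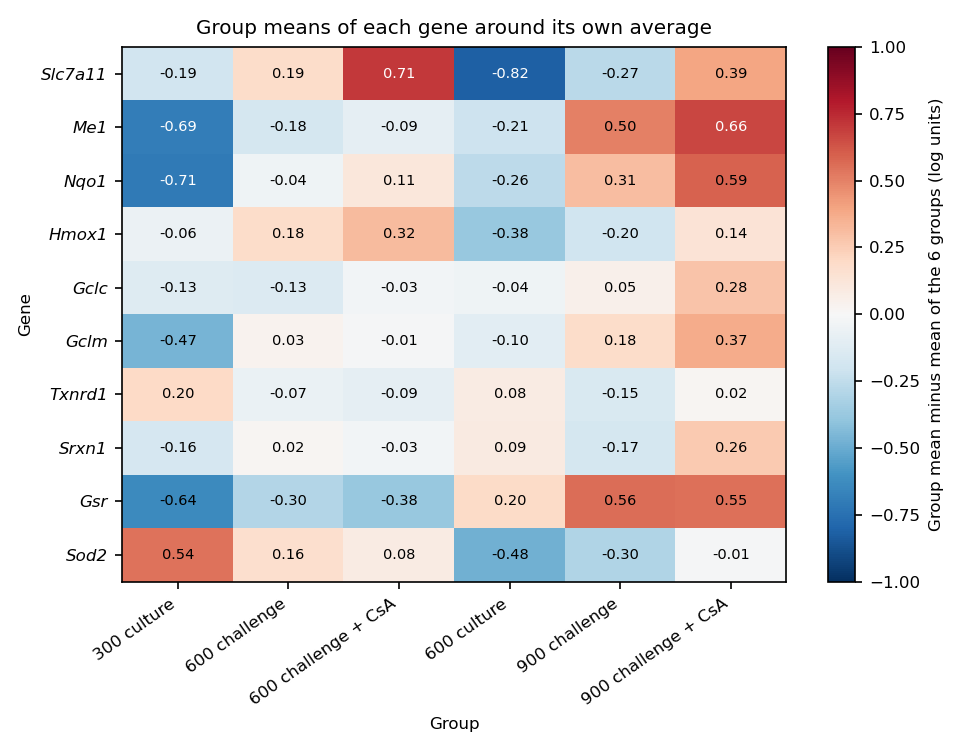
Mean level of each gene in each group (3 arrays) minus the mean of its 6 group means, in log units by colour and number. Me1, Nqo1 and Gclm run from negative in the 300 culture to positive in the 900 challenges, Slc7a11 and Hmox1 are lowest in the 600 culture, and Sod2 runs from 0.54 in the 300 culture to -0.48 in the 600 culture.

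Over the 18 arrays, Nqo1 and Gclm had the highest Pearson correlation among the 45 pairs of members (r = 0.97), followed by Me1 with Nqo1 (0.94) and with Gclm (0.94) and by Slc7a11 with Hmox1 (0.90). Of the pairs, 12 had r over 0.5 and 5 had r under -0.5, the lowest being Gsr with Sod2 (-0.75). These values describe arrays that share 6 groups, so they mostly reflect group means. The genes most alike over the 18 arrays were sought among other features with 1 symbol, placeholder symbols left out. The closest were Timp3 for Gsr (r = 0.99), Hsph1 and Abcc4 for Me1 (0.99 and 0.99), ST7 for Nqo1 (0.98) and Tnfsf15 for Gclm (0.98). For Sod2 they were Nfe2l1 (0.97), Il1b (0.96) and Cxcl16 (0.96). For Slc7a11 they were Uggt1 (0.93) and Hyou1 (0.92), for Hmox1 Nomo1 (0.92), for Gclc Sema3a (0.94), for Txnrd1 Mrpl10 (0.84) and for Srxn1 Nip7 (0.81). Among the 3 closest were also Gclm for Nqo1 (0.97), Nqo1 for Gclm (0.97) and Slc7a11 for Hmox1 (0.90).

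The step from 300 to 600 mosmol/kg raised 5 members and lowered 2. By limma with Benjamini-Hochberg adjustment over all 28328 features, Nqo1 rose by 0.67 ± 0.06 log units (SE, adjusted p = 2.96e-06, 1.59-fold if base 2 and 1.95-fold if natural). Me1 rose by 0.52 ± 0.05, Gclm by 0.50 ± 0.05, Gsr by 0.34 ± 0.06 and Slc7a11 by 0.38 ± 0.12 (adjusted p = 0.0422). Sod2 fell by 0.38 ± 0.04 and Txnrd1 by 0.27 ± 0.08 (adjusted p = 0.0298). Hmox1 was 0.24 ± 0.08 higher (adjusted p = 0.0555), Srxn1 0.18 ± 0.14 higher, and Gclc differed by -0.01 ± 0.05. Hmox1 passed after quantile normalization (adjusted p = 0.0345) and with dim features left out (0.0368). It also passed with a prior variance that depends on level (0.0237) and without replicate 3 of the challenge (0.0231). The 7 members called stand beside 14.4% of all features (6.36% higher, 8.07% lower), and the median difference of the 10 was 0.29 against 0.02 over all features. For 8 of the 10 the 3 values of each group did not overlap, as for 32.3% of all features. Leukocyte markers fell in 12 of 13 cases and fibroblast markers in 9 of 12 in the same comparison, and their part in the members' differences was not tested. The Slc7a11 call was lost without any 1 of replicates 1, 2 and 3 of the 300 culture and replicates 1 and 3 of the 600 challenge (adjusted p = 0.0664 to 0.188) with the replicate number as a block (adjusted p = 0.0639) and in a fit of these groups alone (0.1005). The Txnrd1 call was lost without replicate 1 of the 300 culture or replicates 1 or 3 of the challenge (adjusted p = 0.0961 to 0.142), with arrays centred on their medians (0.0559) and in these groups alone (0.114).

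With cyclosporin A in the same step, measured against the same 3 arrays of the 300 culture, 6 members rose and 2 fell (14.1% of all features called, 6.21% higher and 7.85% lower). Slc7a11 rose by 0.90 ± 0.12, Nqo1 by 0.82 ± 0.06, Me1 by 0.60 ± 0.05, Gclm by 0.46 ± 0.05, Hmox1 by 0.38 ± 0.08 and Gsr by 0.26 ± 0.06. Sod2 fell by 0.46 ± 0.04 and Txnrd1 by 0.29 ± 0.08, the latter not without replicate 1 of the 300 culture or replicates 1 or 3 of the drug group (adjusted p = 0.0546 to 0.0985). In a fit of these groups alone, Txnrd1 (adjusted p = 0.088) and Gsr (0.0622) did not pass. Gclc and Srxn1 were 0.10 ± 0.05 and 0.14 ± 0.14 higher and did not pass.

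The step from 600 to 900 mosmol/kg raised 6 members and lowered 1. Me1 rose by 0.71 ± 0.05 (adjusted p = 1.72e-07, 1.64-fold or 2.04-fold), Nqo1 by 0.58 ± 0.06, Slc7a11 by 0.55 ± 0.12, Gsr by 0.37 ± 0.06, Gclm by 0.29 ± 0.05 and Sod2 by 0.18 ± 0.04. Txnrd1 fell by 0.23 ± 0.08, at an adjusted p of 0.0495 by limma. That call was lost without any 1 of 5 of the 6 arrays, all but replicate 1 of the 600 culture (adjusted p = 0.0532 to 0.211), with the arrays centred on their medians (0.12), after quantile normalization (0.0697), with the replicate block (0.0727) and in these groups alone (0.159). The Sod2 call was lost in these groups alone (adjusted p = 0.0951) and kept without any 1 of the 6 arrays. Hmox1 and Gclc were 0.18 ± 0.08 and 0.10 ± 0.05 higher and Srxn1 differed by -0.26 ± 0.14, none past the test. In this comparison 17.4% of all features were called, 6.43% higher and 11.0% lower, and the median difference was 0.23 over the members and -0.01 over all features. Leukocyte markers fell in 12 of 13 and fibroblast markers in 10 of 12, again without a test of their part.

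With cyclosporin A in the step to 900, compared with the same 600 culture, 8 members rose and 0 fell in limma's test (8 had an unadjusted p under 0.05, the same 8, as did 27.7% of all features). The rises were 1.21 ± 0.12 for Slc7a11 (2.32-fold or 3.36-fold), 0.87 ± 0.05 for Me1, 0.86 ± 0.06 for Nqo1, 0.52 ± 0.08 for Hmox1, 0.47 ± 0.05 for Gclm, 0.46 ± 0.04 for Sod2, 0.36 ± 0.06 for Gsr and 0.33 ± 0.05 for Gclc. All 8 kept their call without any 1 of the 6 arrays. Of all features 17.8% were called, 7.27% higher and 10.5% lower. Higher calls made up 40.9% of the total, and 53.5% with arrays centred on their medians. Srxn1 was 0.17 ± 0.14 higher and Txnrd1 differed by -0.07 ± 0.08. Both 900 challenges share their control arrays, so the tests of the drug itself are those that follow.

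**Figure D3:**
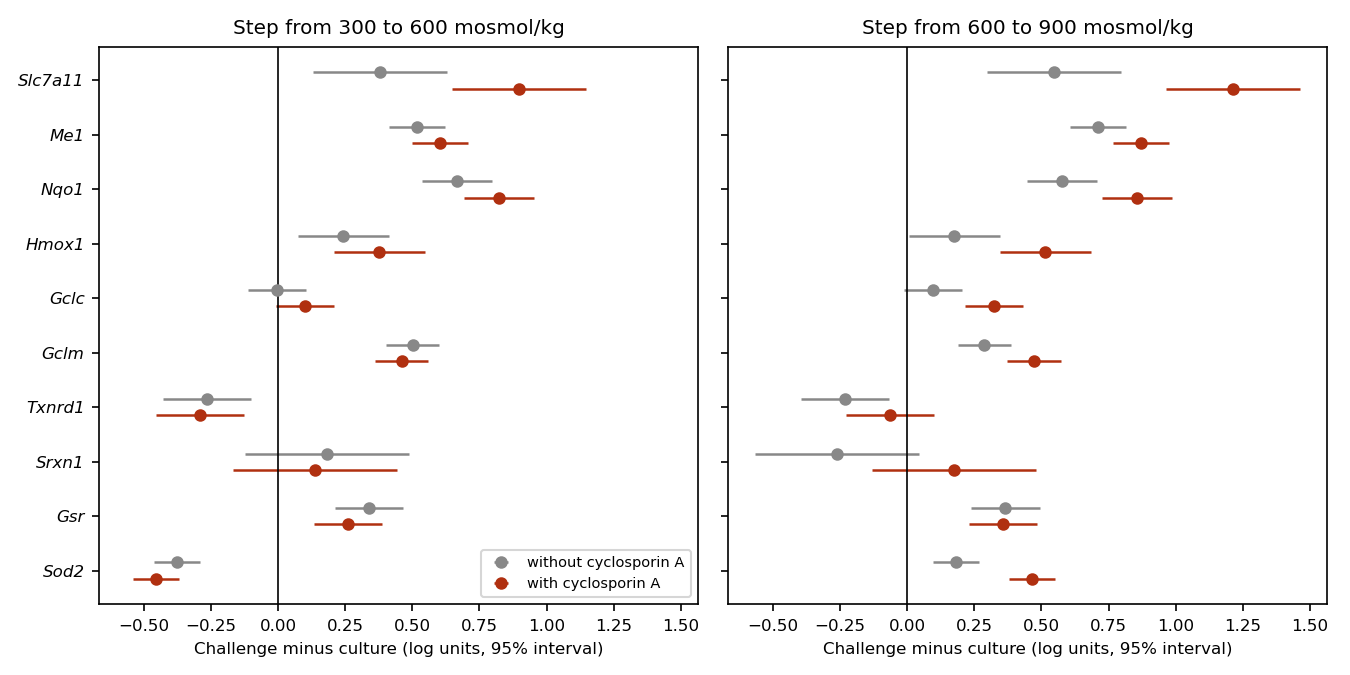
Difference between challenge and culture for each gene (log units, horizontal axis) in the steps from 300 to 600 and from 600 to 900 mosmol/kg, without (grey) and with cyclosporin A (red); bars are 95% intervals. Sod2 lies left of 0 in the first step and right of it in the second.

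A test of the difference between the 2 steps without the drug found 1 member past the threshold, where 7.58% of all features were called (3.52% higher, 4.06% lower): Sod2, whose response was 0.56 ± 0.06 log units higher in the step to 900 than in the step to 600 (adjusted p = 3.6e-05). Gclm had a smaller rise in the step to 900 by 0.21 ± 0.07, which did not pass (adjusted p = 0.0636). Slc7a11 (0.17 ± 0.16), Nqo1 (-0.09 ± 0.09) and Gsr (0.03 ± 0.08) also did not pass. Nor did Me1 (0.195, adjusted p = 0.112) or Srxn1, which had the lowest difference of the members (-0.44). With a prior variance that depends on level, Gclm (adjusted p = 0.0095) and Me1 (0.0219) passed limma's test. Gclm also passed with dim features left out (0.0320) and without replicate 3 of the 600 challenge (0.0401). Of the ATF4 list, 13 of 21 members had a higher and 1 a lower response in the step to 900.

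Cyclosporin A at the 600 challenge left 0 of the 10 members past the threshold by limma, where 0.409% of all features were called, and 2 members, Slc7a11 and Nqo1, had an unadjusted p under 0.05, as did 8.49% of all features. Slc7a11 was 0.52 ± 0.12 higher with the drug (95% interval 0.27 to 0.77, 1.43-fold or 1.68-fold), with an adjusted p of 0.0869 in limma's test. It passed without replicate 1 of the untreated challenge, where the difference was 0.64 (adjusted p = 0.0444), and with a prior variance that depends on level (adjusted p = 0.0228). Nqo1 was 0.16 ± 0.06 higher (adjusted p = 0.464), Hmox1 0.13 ± 0.08 and Gclc 0.10 ± 0.05. Differences of the other 6 ran from -0.08 (Sod2 and Gsr) to 0.09 (Me1). The groups did not overlap for Slc7a11, Nqo1, Me1 and Sod2, or 4 of 10 against 13.2% of all features, and the median difference was 0.03 against 0.003 over all features. All 13 leukocyte and all 12 principal cell markers were on average lower with the drug here, 0 and 1 of them past limma's threshold, and their part was not tested.

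At the 900 challenge 9 of the 10 members were higher with the drug in all 3 arrays than in any untreated array, an order seen for 8.3% of all features (15.8% did not overlap in either direction), and 2 of them passed limma's test, where 0.505% of all features did (0.357% higher). Slc7a11 rose by 0.67 ± 0.12 (95% interval 0.42 to 0.92, 1.59-fold or 1.95-fold, adjusted p = 0.0222) and Sod2 by 0.28 ± 0.04 (0.20 to 0.37, 1.22-fold or 1.33-fold, adjusted p = 0.00572). Higher without passing were Hmox1 by 0.34 ± 0.08 (adjusted p = 0.0874), Nqo1 by 0.28 ± 0.06 (0.0617), Gclc by 0.23 ± 0.05 (0.0677), Gclm by 0.19 ± 0.05 (0.112), Txnrd1 by 0.17 ± 0.08 (0.458) and Me1 by 0.16 ± 0.05 (0.216). The ninth was Srxn1 (adjusted p = 0.258), whose untreated mean of 2.58 lay under the lower quartile of all values, so that the size of its difference is not established. Gsr was the exception, with a difference of -0.01 ± 0.06 and a 95% interval of -0.14 to 0.12. An unadjusted p under 0.05 was found for 9 members and for 10.6% of all features. The median difference was 0.25 over the 10 and -0.003 over all features. Among features whose mean lay over the median of all features, the groups did not overlap in 20.6%, counting both directions. The 9 members with such a mean exclude Srxn1.

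How many members passed depended on the fit. With a prior variance that depends on level, 7 did, the added ones being Nqo1, Hmox1, Gclc, Gclm and Me1. With dim features left out, Nqo1 and Gclc joined, for 4 in all. In a fit of these 2 groups alone 0 passed, as did 0 of all features, although 8 members and 2446 features had an unadjusted p under 0.05 there in limma. Sod2 kept its call without any 1 array, and Slc7a11 lost it without any 1 of 5 arrays, all but replicate 2 of the untreated challenge (adjusted p = 0.0661 to 0.0892), at differences of 0.56 to 0.70. In this comparison the leukocyte mean was 3.41 to 3.44 without and 3.43 to 3.46 with the drug, and 1 of its 13 markers rose, Fcer1g, by 0.39. The fibroblast list had 1 higher and 2 lower of 12, and the principal cell list 0 of 12 in either direction, with a median difference of -0.13 and all 12 differences negative.

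**Figure D4:**
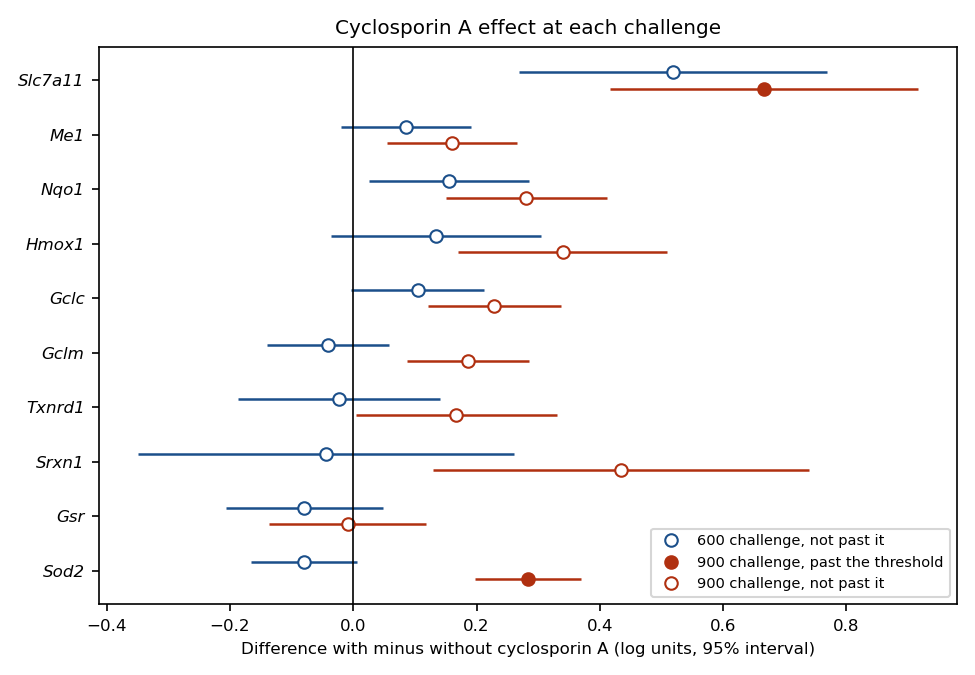
Difference with minus without cyclosporin A for each gene (log units, horizontal axis) at the 600 (blue) and 900 (red) challenge; bars are 95% intervals and filled points passed the threshold. At the 900 challenge Gsr alone has a difference below 0, of -0.01.

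The difference between the 2 drug effects was positive for all 10 members, and 49% of all features had a positive difference. It passed for Sod2 alone (0.36 ± 0.06, adjusted p = 0.0396 by limma), where 0.0459% of all features were called (0.0388% higher). Sod2 had differed by -0.08 ± 0.04 with the drug at the 600 challenge and rose at the 900 challenge, with no overlap of the groups at either. Its call was lost without any 1 of 11 of the 12 arrays, all but replicate 2 of the 900 challenge with the drug (adjusted p = 0.0648 to 0.137), at differences of 0.35 to 0.38, with arrays centred on their medians (0.0923), after quantile normalization (0.0665), with the replicate block (0.0896) and in these groups alone (0.171). Next in unadjusted p came Gclm (0.23 ± 0.07, adjusted p = 0.4) and Srxn1 (adjusted p = 0.611). For Slc7a11 the 2 drug effects were not shown to differ (0.15 ± 0.16, adjusted p = 0.888).

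Long culture at 600 mosmol/kg and a 24 h challenge at 600 gave different levels of several members, in cells that also differed in their culture before the last 24 h. Against the 300 culture, the 600 culture had Gsr higher by 0.83 ± 0.06, Me1 by 0.49 ± 0.05, Nqo1 by 0.44 ± 0.06 and Gclm by 0.36 ± 0.05, and it had lower Sod2 (-1.02 ± 0.04, 2.02-fold or 2.77-fold), Slc7a11 (-0.63 ± 0.12) and Hmox1 (-0.31 ± 0.08), all past limma's threshold as were 17.2% of all features (8.33% higher, 8.84% lower). The 600 challenge set directly against the 600 culture had 4 members higher and 1 lower, with 16.4% of all features called (7.69% higher, 8.74% lower). Slc7a11 was higher by 1.01 ± 0.12, Sod2 by 0.64 ± 0.04, Hmox1 by 0.56 ± 0.08 and Nqo1 by 0.22 ± 0.06, and Gsr was lower (-0.49 ± 0.06). The Nqo1 call was lost without replicate 1 of the 600 culture or replicates 1 or 2 of the challenge (adjusted p = 0.0747 to 0.1) and in these groups alone (0.169). For Me1 the difference was 0.03 ± 0.05. In these comparisons leukocyte markers were lower in the 600 than in the 300 culture in 12 of 13 cases, while between the 600 challenge and the 600 culture 3 were higher and 4 lower. Principal cell markers were lower in the challenge than in the 600 culture in 9 of 12 cases.

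Of 13 regulators of the pathway measured with the drug and without it, 0 passed at the 600 challenge and 1 at the 900 challenge. Among all features 0.409% and 0.505% passed. The 1 regulator was Sqstm1, whose product p62 draws KEAP1 into autophagy and which rose by 0.29. Mean levels of Sqstm1 were 6.81 for the 300 culture, 6.83 for the 600 culture, 6.88 for the 600 challenge, 7.13 for the 900 challenge and 7.42 for the latter with the drug. Its rise of 0.30 in the step to 900 also passed. The transcript of Nfe2l2 itself averaged 6.84 in the 300 culture and 7.22 in the 600 culture, a rise of 0.38, and fell by 0.16 in the step to 900. With the drug its differences were -0.02 at the 600 and 0.11 at the 900 challenge (adjusted p = 0.95 and 0.4). Keap1 was 0.24 higher and Bach1, the repressor of Hmox1, was lower (-0.41) in the 600 than in the 300 culture. The related factor gene Nfe2l1 averaged 7.15 in the 300 culture and 6.67 in the 600 culture, and it fell by 0.25 in the step to 600.

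Of 39 other genes under NRF2 control that were measured, the step to 600 raised 6 and lowered 8 (median -0.05), where 6.36% of all features were called higher and 8.07% lower. The step to 900 raised 8 and lowered 9 (median -0.08), where 6.43% of all features were called higher and 11.0% lower. Akr1b8, an aldo-keto reductase, rose by 1.18 and 0.88 in the 2 steps, and the efflux pump gene Abcc4 by 1.04 and 0.95. In the step to 900 the aldo-keto reductase gene Akr7a3 rose by 1.75 and Ggt1, whose enzyme splits extracellular glutathione, by 1.07. Among the glutathione transferase genes, Gstm1 fell by 0.62 and 0.85 and Gsta1 by 0.76 and 0.50. These belong to families of near-identical copies, between which array features may share signal. At the 900 challenge the drug raised 2 of the 39, the glutathione peroxidase gene Gpx2 by 0.39 and the UDP-glucose dehydrogenase gene Ugdh by 0.27, and 32 of the 39 differences were positive (median 0.08). Of all features 0.357% were called higher with the drug at the 900 challenge, and 49.2% of the differences were positive. At the 600 challenge 1 fell, Gstm2 by 0.33, and 17 of 39 differences were positive (median -0.02). There 0.409% of all features were called in either direction.

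Of 23 antioxidant enzymes outside the usual NRF2 set, the step to 600 raised 2 and lowered 6, and the step to 900 raised 1 and lowered 7. Lower calls also outnumbered higher ones over all features in both steps, by the shares just given. The extracellular enzymes Gpx3 (by 1.60 and 0.89) and Sod3 (by 1.05 and 0.66) fell in both steps, and the glutaredoxin gene Glrx fell by 0.79 and 0.70. The drug left 0 of the 23 past limma's threshold at the 900 challenge and lowered 1 at the 600 challenge, Gpx1, by 0.33. Medians of its differences were 0.02 and 0.01 at the 600 and 900 challenges.

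Lists of other targets of ATF4 and of NF-kB, factors to which Slc7a11 and Sod2 respectively also answer, are set beside the members here. The part of ATF4 and of NF-kB in the members' differences was not tested. ATF4 targets (21 measured) fell in 11 cases and rose in 2 in the step to 600 (median -0.41). They rose in 11 and fell in 2 in the step to 900 (median 0.24). Of all features, 6.36% were called higher and 8.07% lower in the step to 600, and 6.43% and 11.0% in the step to 900. Slc7a11 rose in both steps, though its call in the step to 600 was lost in 7 of 12 alternatives. With the drug 0 of the 21 passed at the 600 and 1 at the 900 challenge (Gdf15, 0.57), with medians of 0.16 and 0.17 and 19 and 18 positive differences. Among all features 0.409% and 0.505% passed there, and 51.0% and 49.2% of the differences were positive. NF-kB targets (19 measured) rose in 7 and fell in 4 cases in the step to 600 (median 0.10), where Sod2 fell by 0.38. They rose in 10 and fell in 3 in the step to 900 (median 0.18), where Sod2 rose by 0.18. In the 600 culture 15 of them were lower than in the 300 culture and 1 was higher (median -0.59), and Sod2 was lower there as well. Of all features 8.84% were called lower and 8.33% higher in that comparison. The drug left 0 of the 19 past limma's threshold at the 600 challenge (median 0.00) and raised 6 at the 900 challenge (median 0.24), led by the chemokine genes Cxcl2 by 0.98, Cxcl1 by 0.94 and Ccl20 by 0.92. At the 900 challenge 0.357% of all features were called higher with the drug. The difference between the drug effects passed for 4 of the 19 and for 0.0459% of all features.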

How the data were processed

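The deposited table holds 28328 features on 18 arrays. Its values are logarithms, and the summarisation, the normalization and the base of the log made by the authors are not given in the sources used here. Total RNA was isolated with a Qiagen kit and labelled with biotin as whole-transcript cDNA, per the labels' protocols. No filter or pseudocount was applied. The number of arrays limits the precision.

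Features were named through the table of genes for the platform's probes (15295 features with 1 symbol, 322 with several, 12711 not named there). Groups were compared with limma 3.58.1 in R 4.3.3: 6 group means on all 18 arrays, moderated variances, Benjamini-Hochberg adjustment over all features and a threshold of 0.05. A change of base leaves each p-value as it is. limma was tested on simulated data. No 2 arrays were identical.

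Every member is named. From the other lists, regulators and up to 4 passing genes per direction are named, each by its feature with the highest mean. The 3 genes most alike by Pearson's r over 18 arrays were sought for each member. Placeholder symbols (those starting with LOC, RGD, Olr, Vom, Mir or AABR) were passed over in that search. The members, lists and tests were chosen with earlier results of these data known. The AP-1 motif and the shares of features whose groups do not overlap were added after the values were seen. Alternatives were median centring, quantile normalization, leaving out dim features (mean under 2.60), a variance trend, the contrast's groups alone, a replicate block and leaving out each array. Replicate numbers did not pair the arrays. Python 3.11.15 and matplotlib 3.10.9 made the summaries and figures.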

Additional observations from a re-analysis of the deposited data

Results flagged for a closer look

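For Sod2, the 2 osmotic steps gave different responses when the difference itself was tested: -0.38 from 300 to 600 mosmol/kg and 0.18 from 600 to 900, a difference of 0.56 ± 0.06 log units (limma, adjusted p = 3.6e-05), with 3 of 3 arrays lower than every array of the 300 culture in the first step and 3 of 3 higher than every array of the 600 culture in the second. Sod2 also had a different drug effect at the 2 challenges, -0.08 at 600 and 0.28 at 900, a difference of 0.36 ± 0.06 (adjusted p = 0.0396). That second call was lost in 15 of 18 alternatives: without any 1 of 11 of the 12 arrays (adjusted p = 0.0648 to 0.137), with arrays centred on their medians (0.0923), after quantile normalization (0.0665), with the replicate block (0.0896) and in these groups alone (0.171). With 3 arrays in each group, no test for a single far array was run.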

How the results depend on the processing

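No member difference that passed the threshold changed its sign under any alternative run, but calls were lost and gained. Without leaving out arrays, 566 member values kept their side of the threshold, 18 no longer passed and 16 newly passed, and with 1 array left out these were 681, 35 and 4. At the 600 challenge the drug effect passed for 0 members, for 1 with the variance trend and for 0 to 1 without 1 array. At the 900 challenge it passed for 2, for 4 without dim features, 7 with the trend, 0 in the contrast's groups alone and 1 to 2 without 1 array. The difference of the drug effects (1 member) passed for 0 with centred arrays, 0 after quantile normalization, 0 with the replicate block and 0 in its groups alone, and for 0 to 1 without 1 array. The difference of the steps (1 member) passed for 2 without dim features, 3 with the trend and 1 to 2 without 1 array. The 600 challenge against the 600 culture had 4 to 6 without 1 array. Over all features the drug effects called 116 and 143, 178 and 233 without dim features, 272 and 383 with the trend, 0 and 0 in the contrast's groups alone (limma, 2170 and 2446 at an unadjusted p under 0.05), and 39 to 67 and 43 to 76 without 1 array. The difference of the drug effects called 13, 28 without dim features, 37 with the trend, 5 in its groups alone and 4 to 17 without 1 array. With their groups alone, the step to 600 with the drug called 2479 against 3982 in all groups, the steps to 900 without and with it 2860 against 4934 and 3059 against 5040, and the 600 challenge against the 600 culture 3071 against 4655. The replicate numbers of the titles showed no pairing: same-numbered arrays of different groups had deviations with a median r of 0.01, over 0.1 in 1 of 45 pairs. A block on these numbers changed 3 calls, of Slc7a11 in the step to 600 (0.38), Txnrd1 in the step to 900 (-0.23) and Sod2 between the drug effects (0.36). The cause of these changes was not tested. Signal over background is not given, and Srxn1 lies near the lower quartile.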

Other observations

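The 600 culture differed from the 300 culture in other genes under NRF2 control as well. Of the 39 measured, 10 were higher and 9 lower in the 600 culture (median difference 0.06, against 0.00 over all features). Of all features, 8.33% were called higher and 8.84% lower. Akr7a3, an aldo-keto reductase gene, was 2.36 log units higher, the microsomal epoxide hydrolase gene Ephx1 1.03, the efflux pump gene Abcc4 0.95 and the glutathione transferase gene Gstm2 0.89. Gsta1 (-0.55), Gsta4 (-0.49), the ferritin light chain gene Ftl1 (-0.43) and Mgst1 (-0.41) were lower. The 12 principal cell markers were all higher on average in the same comparison, 8 of them past the threshold (median 1.80), and endothelial markers were higher in 5 of 7 cases and lower in 1.

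Between the 600 challenge and the 600 culture, the same list had 6 higher and 8 lower members. Of all features, 7.69% were called higher and 8.74% lower. Akr7a3 (-2.11), Gstm1 (-1.39), Ephx1 (-1.24) and Gstm2 (-1.13) were lower in the challenge, and Gsta4 (0.71) and Akr1b8 (0.51) were higher. Of the 19 NF-kB targets, 16 were higher and 2 lower, led by Cxcl2 (3.30), Cxcl1 (2.90), Ptgs2 (2.54) and Tnf (2.09).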
